A study of Mus musculus with 6 samples.

Results

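Cell cycle and DNA replication genes were read in sorted mouse bone marrow cultures through a list of 45 genes: cyclins and their kinases, E2F factors, replication factors, mitotic genes and inhibitors of cyclin-dependent kinases (CDKs). A gene counted as measured where the array annotation gave a probe set to it alone, and of several such probe sets the brightest, by its mean over the 6 arrays, was taken. This left 43 of the 45 genes, of 19938 genes measured in all. Ccnb1, a mitotic cyclin, had no probe set of its own here, and Cdkn1a, a CDK inhibitor, was represented only by a probe set annotated to it and to another gene.

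GM-BMDC are dendritic cells and GM-BMM are macrophages of the labels, both sorted from marrow grown with 25 ng/ml of the growth factor GM-CSF, where the GM-BMDC gate was MHCIIhighF4/80low and the GM-BMM gate MHCIIlowF4/80high. Macrophages of the third population, M-BMM, were sorted as positive for CD11b and for the product of Adgre1, from marrow grown with 20% L cell conditioned medium, which supplied M-CSF. All cultures came from C57BL/6J mice labelled male and 6 to 10 weeks old and lasted 7 days, and each group has 2 samples that the labels call biological replicates, with 1 array per sample. The labels do not give the number of animals or cultures behind a replicate, so p-values measure the spread between these arrays.

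The cell cycle runs through G1, S phase, in which DNA is copied, G2 and mitosis. D-type cyclins with Cdk4 or Cdk6 act in G1 and release E2F factors from the retinoblastoma protein, E2F factors drive genes of S phase, and a later wave of genes drives G2 and mitosis. GM-CSF and M-CSF are both known to make marrow precursors divide before they mature.

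Each value below is a log2 signal, in which a step of 1 is a 2-fold change, and levels of different genes are not set against each other. Signals under 5.04, the 25th percentile of all values, are called low, and none of the 43 genes was low in every array. The array medians lay between 6.18 and 6.28. The labels were read against marker genes. All 6 dendritic cell markers were higher in GM-BMDC than in GM-BMM, and 4 of 6 measured macrophage markers were lower. Of the dendritic cell markers, Itgax and Ccr7 were also called higher in GM-BMM than in M-BMM, and 4 were not called there. Itgax had signals of 10.72 and 10.05 in GM-BMM and 6.01 and 5.71 in M-BMM. Adgre1, which encodes the macrophage marker of the gates, had signals of 9.39 and 10.91 in GM-BMDC, 12.32 and 12.61 in GM-BMM, and 12.73 and 12.79 in M-BMM.

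The label male did not hold for every array. Xist, the RNA of the silenced X chromosome of female cells, had signals of 11.66 and 10.68 in GM-BMDC, 11.58 and 4.93 in GM-BMM, and 4.53 and 4.80 in M-BMM. The Y-linked gene Uty had signals of 3.98 and 8.17 in GM-BMDC, 3.58 and 8.68 in GM-BMM, and 8.93 and 8.84 in M-BMM. The first array of both GM-CSF groups was therefore high in Xist and low in Uty, and the second GM-BMDC array was high in both. Results are given with these arrays, and calls lost or differences changed without both GM-CSF arrays numbered 1 are given beside them. That fit leaves 1 array in each GM-CSF group, so its spread comes from the M-BMM arrays and not from the GM-CSF replicates. In GM-BMM against M-BMM the arrays that then remain were all low in Xist. Both GM-BMDC arrays were high in Xist, so comparisons with GM-BMDC could not leave out every such array.

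Most of the 43 genes differed little between the populations. In 35 of them (81.4%) the highest and lowest of the 6 arrays lay within 1 log2 unit, against 85.7% of all genes. In GM-BMDC against GM-BMM, 4 of 43 genes passed limma's test at an adjusted p of 0.05, against 10.4% of all genes, with Ccnd2, Cenpa and Cdkn2c higher (4.69% of all genes were) and E2f1 lower (5.74% were). In GM-BMM against M-BMM, 3 of 43 passed, against 6.19% of all genes, with Cdk6 and E2f2 higher (3.62% of all genes) and Ccnd1 lower (2.57%). In GM-BMDC against M-BMM, 9 of 43 passed, against 16.7% of all genes, with Ccnd2, E2f2, E2f8, Mcm7, Tyms, Cenpa, Plk1 and Cdkn2c higher (7.76% of all genes) and E2f1 lower (8.9%). The shares of the 43 genes called in either direction were 9.3%, 6.98% and 20.9%, near those of all genes. All genes include 3300 that were low in every array, and the 43 include none. In a fit of only the 9969 genes above the median signal, 2086, 1292 and 3176 were called. Of the 41 members among them 5, 3 and 9 were called, a smaller share in each comparison. In GM-BMDC against M-BMM the directions were uneven, with 8 called higher and 1 lower, against 1548 and 1775 of all genes. There 33 of the 43 differences were positive, against 9886 of all 19938. Log2 differences over 1 in size were held by 3, 1 and 4 of the 43, against 5.21%, 3.65% and 7.24% of all genes. The 2 groups' arrays did not overlap in 16, 18 and 26 of the 43 (37.2%, 41.9% and 60.5%), against 51.3%, 49.8% and 56.4% of all genes. The median log2 differences were 0.13, 0.09 and 0.18 for the 43 genes, against 0.02, -0.02 and 0.00 for all genes. The comparisons share arrays, so they are not independent of each other. In bulk samples, fewer cells of a type and less RNA per cell cannot be told apart.

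**Figure D1:**
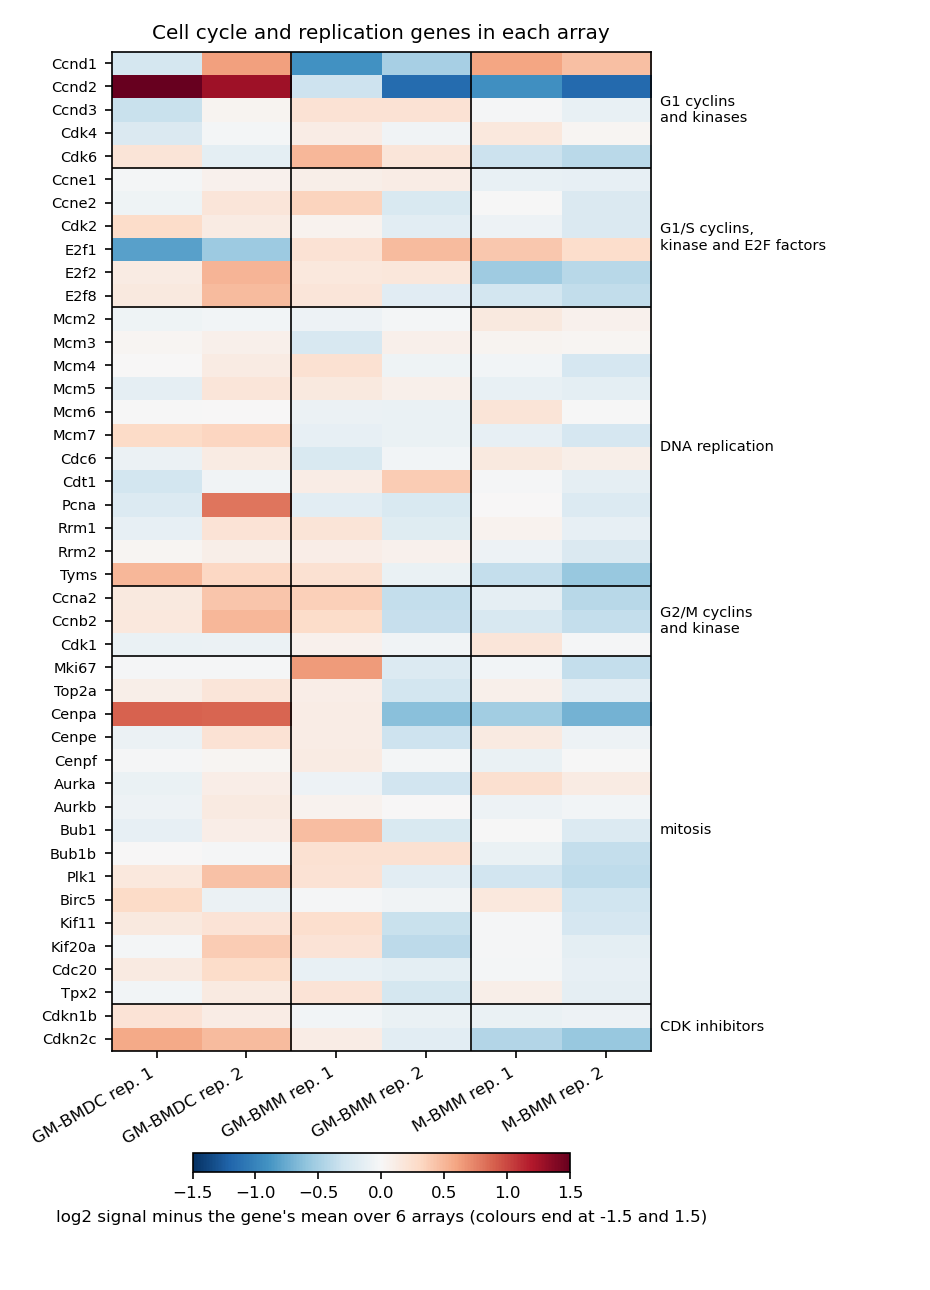
Log2 signal of the 43 measured genes in each of the 6 arrays, as the difference from the gene's own mean over the 6 arrays, with genes in rows grouped by role and arrays in columns (GM-BMDC, GM-BMM and M-BMM, 2 arrays each). Ccnd2 and Cenpa were above their means in both GM-BMDC arrays and E2f1 was below its mean in both, while most rows stay pale.

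Ccnd2 had the largest differences of the 43 genes in GM-BMDC against both other groups. Ccnd2, which encodes cyclin D2, had signals of 11.92 and 10.92 in GM-BMDC, 9.33 and 8.49 in GM-BMM, and 8.73 and 8.48 in M-BMM. Both GM-BMDC arrays lay above the other 4, and GM-BMM and M-BMM overlapped. Ccnd2 was 5.68-fold higher in GM-BMDC than in GM-BMM (a log2 difference of 2.51 ± 0.36, SE, n = 2 arrays each; limma adjusted p = 0.0055) and 7.05-fold higher than in M-BMM (2.82 ± 0.36, limma adjusted p = 0.0021). Its difference between GM-BMM and M-BMM was 0.31 ± 0.36 (limma adjusted p = 0.746). Both calls held in each of 15 alternative fits, including those that left out 1 array.

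Ccnd1, which encodes cyclin D1, had signals of 8.68 and 9.56 in GM-BMDC, 8.03 and 8.44 in GM-BMM, and 9.53 and 9.39 in M-BMM. GM-BMM was lowest, and the GM-BMDC arrays spanned 0.88. Ccnd1 was 2.34-fold lower in GM-BMM than in M-BMM (a log2 difference of -1.22 ± 0.28, limma adjusted p = 0.0457). This call was lost without GM-BMM replicate 1 (adjusted p = 0.189) or 2 (0.056) and without M-BMM replicate 1 (0.27) or 2 (0.223). It was also lost with Y-linked signal as a covariate (0.0636). GM-BMDC minus GM-BMM was 0.88 ± 0.28 (limma adjusted p = 0.0974). Without both GM-CSF arrays numbered 1, which leaves 1 array in each of these groups, it was 1.12. GM-BMDC minus M-BMM was -0.34 ± 0.28 (limma adjusted p = 0.503).

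Ccnd3, which encodes cyclin D3, had signals of 8.51 and 8.88 in GM-BMDC, 9.06 and 9.06 in GM-BMM, and 8.82 and 8.74 in M-BMM. Its log2 differences were -0.37 ± 0.14 in GM-BMDC against GM-BMM, 0.28 ± 0.14 in GM-BMM against M-BMM and -0.09 ± 0.14 in GM-BMDC against M-BMM, none past the limma threshold (adjusted p = 0.181, 0.366 and 0.778). The 3 D-type cyclins thus had their highest group means in different populations, Ccnd2 in GM-BMDC, Ccnd3 in GM-BMM and Ccnd1 in M-BMM, and only for Ccnd2 was that group called against both others.

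Of the kinases that bind D-type cyclins, Cdk6 was called in 1 comparison and Cdk4 in none. Cdk6 had signals of 9.57 and 9.23 in GM-BMDC, 9.88 and 9.56 in GM-BMM, and 9.06 and 8.97 in M-BMM. M-BMM was below the other 4 arrays. Cdk6 was 1.63-fold higher in GM-BMM than in M-BMM (a log2 difference of 0.71 ± 0.16, limma adjusted p = 0.0481), and this call was lost without GM-BMM replicate 1 (adjusted p = 0.198), without M-BMM replicate 1 (0.217) or 2 (0.271), and without both GM-CSF arrays numbered 1 (0.0589). Cdk6 differed by -0.32 ± 0.16 in GM-BMDC against GM-BMM and by 0.39 ± 0.16 in GM-BMDC against M-BMM (limma adjusted p = 0.301 and 0.169). Cdk4 had signals of 10.81 and 10.999 in GM-BMDC, 11.14 and 10.97 in GM-BMM, and 11.18 and 11.06 in M-BMM. Its log2 differences were -0.15 ± 0.13, -0.07 ± 0.13 and -0.21 ± 0.13 in GM-BMDC against GM-BMM, GM-BMM against M-BMM and GM-BMDC against M-BMM (limma adjusted p = 0.586, 0.862 and 0.342).

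Among the inhibitors, Cdkn2c, which encodes p18, an inhibitor of Cdk4 and Cdk6, had signals of 7.17 and 7.08 in GM-BMDC, 6.72 and 6.45 in GM-BMM, and 6.17 and 6.04 in M-BMM. The 3 groups did not overlap, in this order. Cdkn2c was 2.03-fold higher in GM-BMDC than in M-BMM (a log2 difference of 1.02 ± 0.13, limma adjusted p = 0.0021), in each of the 15 alternatives. Against GM-BMM it was 1.46-fold higher in GM-BMDC (0.54 ± 0.13, limma adjusted p = 0.043). That call was lost without GM-BMDC replicate 1 (adjusted p = 0.183) or 2 (0.0856), GM-BMM replicate 2 (0.188) or either M-BMM array (0.0918), and without both GM-CSF arrays numbered 1 (0.0561). GM-BMM minus M-BMM was 0.48 ± 0.13 (limma adjusted p = 0.0893).

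Cdkn1b, which encodes p27, an inhibitor of Cdk2 complexes, had signals of 9.60 and 9.51 in GM-BMDC, 9.35 and 9.30 in GM-BMM, and 9.29 and 9.32 in M-BMM. Both GM-BMDC arrays were above the other 4, but its log2 differences of 0.23 ± 0.11 in GM-BMDC against GM-BMM and 0.26 ± 0.11 in GM-BMDC against M-BMM did not pass the limma threshold (adjusted p = 0.255 and 0.171). GM-BMM minus M-BMM was 0.02 ± 0.11 (limma adjusted p = 0.952). A second, dimmer Cdkn1b probe set gave differences of -0.11 in GM-BMDC against GM-BMM and -0.29 in GM-BMDC against M-BMM, so its probe sets disagree in sign.

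The E2F factors did not move together. E2f1, an activator of S phase genes, had signals of 7.45 and 7.72 in GM-BMDC, 8.48 and 8.73 in GM-BMM, and 8.66 and 8.53 in M-BMM. Both GM-BMDC arrays were below the other 4, and GM-BMM and M-BMM overlapped. E2f1 was lower in GM-BMDC, with a log2 difference of -1.03 ± 0.14 from GM-BMM (limma adjusted p = 0.0051) and of -1.01 ± 0.14, 2.02-fold, against M-BMM (limma adjusted p = 0.0033). Both calls held in each of the 15 alternatives. GM-BMM minus M-BMM was 0.01 ± 0.14 (limma adjusted p = 0.98).

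E2f2, also an activator, had signals of 7.47 and 7.86 in GM-BMDC, 7.51 and 7.52 in GM-BMM, and 6.82 and 6.94 in M-BMM. Both GM-CSF groups lay above M-BMM and overlapped each other. E2f2 was 1.73-fold higher in GM-BMDC than in M-BMM (a log2 difference of 0.79 ± 0.15, limma adjusted p = 0.0107), a call lost without M-BMM replicate 1 (adjusted p = 0.1) or 2 (0.0626). It was 1.56-fold higher in GM-BMM than in M-BMM (0.64 ± 0.15, limma adjusted p = 0.0495), a call lost without any 1 of the 4 arrays compared (adjusted p = 0.152 and 0.132 without GM-BMM replicates 1 and 2, and 0.277 and 0.203 without M-BMM replicates 1 and 2). GM-BMDC minus GM-BMM was 0.15 ± 0.15 (limma adjusted p = 0.653).

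E2f8, a repressor among the E2F factors, had signals of 7.68 and 8.004 in GM-BMDC, 7.72 and 7.37 in GM-BMM, and 7.26 and 7.17 in M-BMM. The GM-BMDC arrays overlapped with GM-BMM and not with M-BMM. E2f8 was 1.55-fold higher in GM-BMDC than in M-BMM (a log2 difference of 0.63 ± 0.16, limma adjusted p = 0.0381), a call lost without GM-BMDC replicate 2 (adjusted p = 0.154) and without M-BMM replicate 1 (0.157) or 2 (0.186). Cyclin E genes and Cdk2, which act at entry into S phase, were not called in any comparison. Over the 6 arrays Ccne1 ranged between 7.83 and 8.05, Ccne2 between 6.19 and 6.75, and Cdk2 between 8.03 and 8.52.

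DNA replication members comprised Mcm2 to Mcm7, the subunits of the replicative helicase, Cdc6 and Cdt1, which load it, Pcna, the sliding clamp of the polymerases, and Rrm1, Rrm2 and Tyms, which supply nucleotides. Of these 12 genes, 0 were called in GM-BMDC against GM-BMM and 0 in GM-BMM against M-BMM by limma, with 2 and 1 at an unadjusted p under 0.05. Of all 19938 genes, 10.4% and 6.19% were called there, and 4632 and 3834 had an unadjusted p under 0.05. Tyms and Mcm7 were higher in GM-BMDC than in M-BMM and the other 10 were not called, which makes 16.7% called, the same share as of all genes. The median log2 differences of the 12 were 0.06, 0.06 and 0.11 in GM-BMDC against GM-BMM, GM-BMM against M-BMM and GM-BMDC against M-BMM. Without GM-BMDC replicate 2 the medians were -0.01 in GM-BMDC against GM-BMM and -0.05 in GM-BMDC against M-BMM, and without M-BMM replicate 2 that of GM-BMM against M-BMM was -0.02.

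Tyms, which encodes thymidylate synthase, had signals of 8.01 and 7.82 in GM-BMDC, 7.74 and 7.41 in GM-BMM, and 7.15 and 6.94 in M-BMM. The 3 groups did not overlap, in this order. Tyms was 1.82-fold higher in GM-BMDC than in M-BMM (a log2 difference of 0.87 ± 0.15, limma adjusted p = 0.0084), a call lost without GM-BMDC replicate 1 (adjusted p = 0.0524) or M-BMM replicate 2 (0.0799). The differences between neighbouring groups were 0.34 ± 0.15 for GM-BMDC against GM-BMM and 0.53 ± 0.15 for GM-BMM against M-BMM (limma adjusted p = 0.241 and 0.104).

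Mcm7 had signals of 8.17 and 8.21 in GM-BMDC, 7.76 and 7.78 in GM-BMM, and 7.76 and 7.63 in M-BMM. Only the GM-BMDC arrays stood apart. Mcm7 was 1.41-fold higher in GM-BMDC than in M-BMM (a log2 difference of 0.49 ± 0.11, limma adjusted p = 0.0213), and this call was lost without any 1 of the 4 arrays compared (adjusted p = 0.0721 and 0.0733 without GM-BMDC replicates 1 and 2, and 0.0803 and 0.132 without M-BMM replicates 1 and 2) and without both GM-CSF arrays numbered 1 (0.0507). Against GM-BMM the difference was 0.42 ± 0.11 (limma adjusted p = 0.0547). The other helicase subunits were not called in any comparison. Mcm2 ranged between 7.73 and 7.95 over the 6 arrays, Mcm3 between 7.04 and 7.35, Mcm4 between 7.12 and 7.61, Mcm5 between 7.72 and 8.05, and Mcm6 between 7.59 and 7.88, and their differences between GM-BMDC and M-BMM ran from -0.16 for Mcm2 to 0.21 for Mcm4.

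Pcna had signals of 10.43 and 11.43 in GM-BMDC, 10.47 and 10.41 in GM-BMM, and 10.63 and 10.43 in M-BMM. GM-BMDC replicate 2 alone was high, and its second probe set repeated this, with 10.41 and 11.47 in GM-BMDC. The log2 difference of Pcna was 0.49 ± 0.29 in GM-BMDC against GM-BMM and 0.40 ± 0.29 in GM-BMDC against M-BMM (limma adjusted p = 0.385 and 0.447). Without both GM-CSF arrays numbered 1 these became 1.03 and 0.90, so the single remaining GM-BMDC array decides these values. The loading factor gene Cdt1 had signals of 7.20 and 7.42 in GM-BMDC, 7.58 and 7.86 in GM-BMM, and 7.46 and 7.34 in M-BMM. GM-BMM was highest, with no call (limma adjusted p between 0.13 and 0.78). Cdc6 ranged between 5.77 and 6.14, Rrm1 between 8.52 and 8.90 and Rrm2 between 7.89 and 8.21.

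G2/M and mitotic members comprised Ccna2, Ccnb2 and Cdk1, which form the kinases of G2 and mitosis, and 15 genes of chromosome segregation and its control. Of these 18, Cenpa was called in GM-BMDC against GM-BMM, 0 in GM-BMM against M-BMM by limma (2 at an unadjusted p under 0.05), and Cenpa and Plk1 in GM-BMDC against M-BMM. The differences were positive in 13, 11 and 16 of the 18 in these comparisons. Their medians were 0.17, 0.09 and 0.18, against 0.02, -0.02 and 0.00 for all genes. Without GM-BMM replicate 2 the median of GM-BMDC against GM-BMM was -0.04, and without GM-BMM replicate 1 that of GM-BMM against M-BMM was -0.08.

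Cenpa, which encodes the histone H3 variant that marks centromeres, had signals of 8.89 and 8.88 in GM-BMDC, 8.13 and 7.38 in GM-BMM, and 7.49 and 7.30 in M-BMM. Both GM-BMDC arrays were above the other 4. Cenpa was 2.81-fold higher in GM-BMDC than in M-BMM (a log2 difference of 1.49 ± 0.23, limma adjusted p = 0.0042), a call lost without M-BMM replicate 2 (adjusted p = 0.0539). It was 2.19-fold higher in GM-BMDC than in GM-BMM (1.13 ± 0.23, limma adjusted p = 0.0206), a call lost without GM-BMDC replicate 1 (adjusted p = 0.0972) or 2 (0.0651) or either M-BMM array (0.061). GM-BMM minus M-BMM was 0.36 ± 0.23 (limma adjusted p = 0.474). Without both GM-CSF arrays numbered 1, Cenpa differed by 1.497 between the 1 GM-BMDC array and the 1 GM-BMM array left.

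Plk1, a kinase of mitotic entry and spindle assembly, had signals of 7.95 and 8.23 in GM-BMDC, 8.01 and 7.64 in GM-BMM, and 7.50 and 7.41 in M-BMM. GM-BMDC and GM-BMM overlapped, and both lay above M-BMM. Plk1 was 1.55-fold higher in GM-BMDC than in M-BMM (a log2 difference of 0.63 ± 0.16, limma adjusted p = 0.0355), a call lost without GM-BMDC replicate 2 (adjusted p = 0.145) or M-BMM replicate 1 (0.151) or 2 (0.18). Ccnb2, which encodes cyclin B2, and Ccna2, which encodes cyclin A2, differed between GM-BMDC and M-BMM by 0.63 ± 0.21 and 0.55 ± 0.24 (limma adjusted p = 0.0975 and 0.178). Without both GM-CSF arrays numbered 1 these differences were 0.80 and 0.69. In GM-BMDC against GM-BMM they were then 0.84 and 0.77, and that of Kif20a, a kinesin of cytokinesis, was 0.77. These values rest on a single array of each GM-CSF group. The GM-BMM array kept was the lower of its pair for each of these genes.

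Mki67, the gene of the proliferation marker Ki-67, had signals of 8.69 and 8.69 in GM-BMDC, 9.34 and 8.51 in GM-BMM, and 8.66 and 8.35 in M-BMM. GM-BMM replicate 1 was the highest of the 6 arrays and the 2 GM-BMM arrays lay on either side of both GM-BMDC arrays, so Mki67 set no population apart (limma adjusted p between 0.462 and 0.731). The remaining mitotic genes were not called in any comparison. Cdk1 ranged between 8.66 and 8.95 over the 6 arrays, Top2a, a topoisomerase, between 7.80 and 8.26, Cenpe between 6.46 and 6.99 and Cenpf between 6.41 and 6.63. The Aurora kinase genes Aurka and Aurkb ranged between 6.96 and 7.49 and between 8.44 and 8.66. The checkpoint kinase genes Bub1 and Bub1b ranged between 6.99 and 7.68 and between 6.87 and 7.46. Birc5, which encodes survivin, ranged between 5.89 and 6.48, the spindle genes Kif11 and Tpx2 between 7.16 and 7.76 and between 6.87 and 7.35, Kif20a between 7.12 and 7.89, and Cdc20, an activator of the anaphase-promoting complex, between 6.56 and 6.99.

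**Figure D2:**
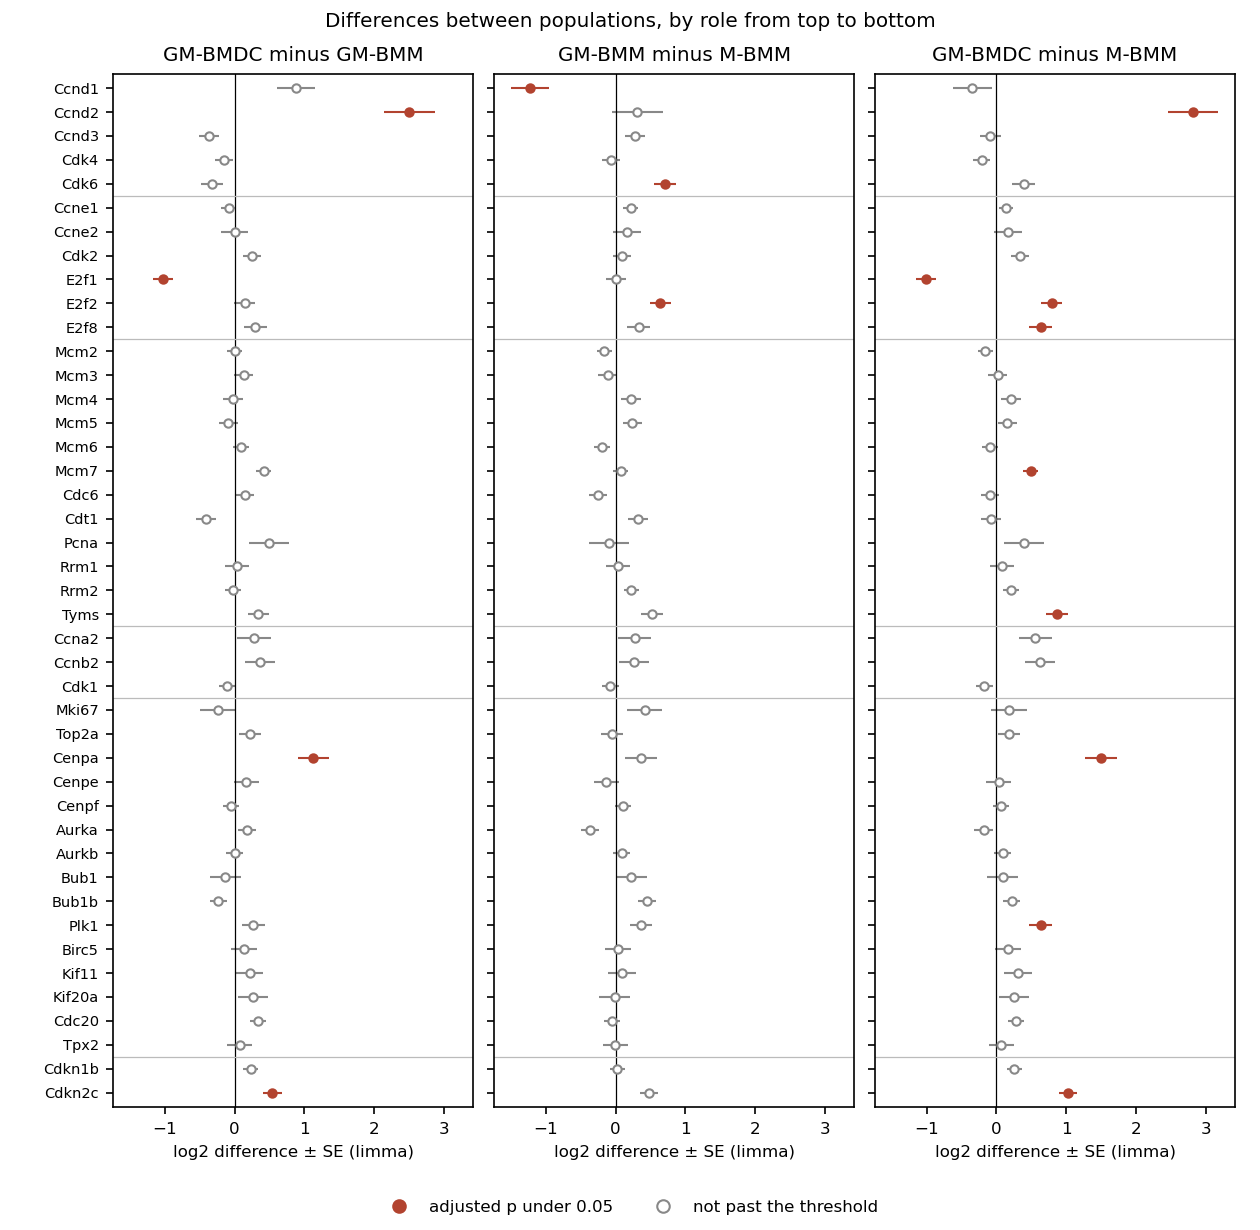
Log2 difference ± SE from limma (horizontal axis) of the 43 genes (rows, by role from G1 cyclins at the top to CDK inhibitors at the bottom) in the 3 comparisons. Filled points passed an adjusted p of 0.05, which 4, 3 and 9 genes did, and most open points lie near 0.

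**Figure D3:**
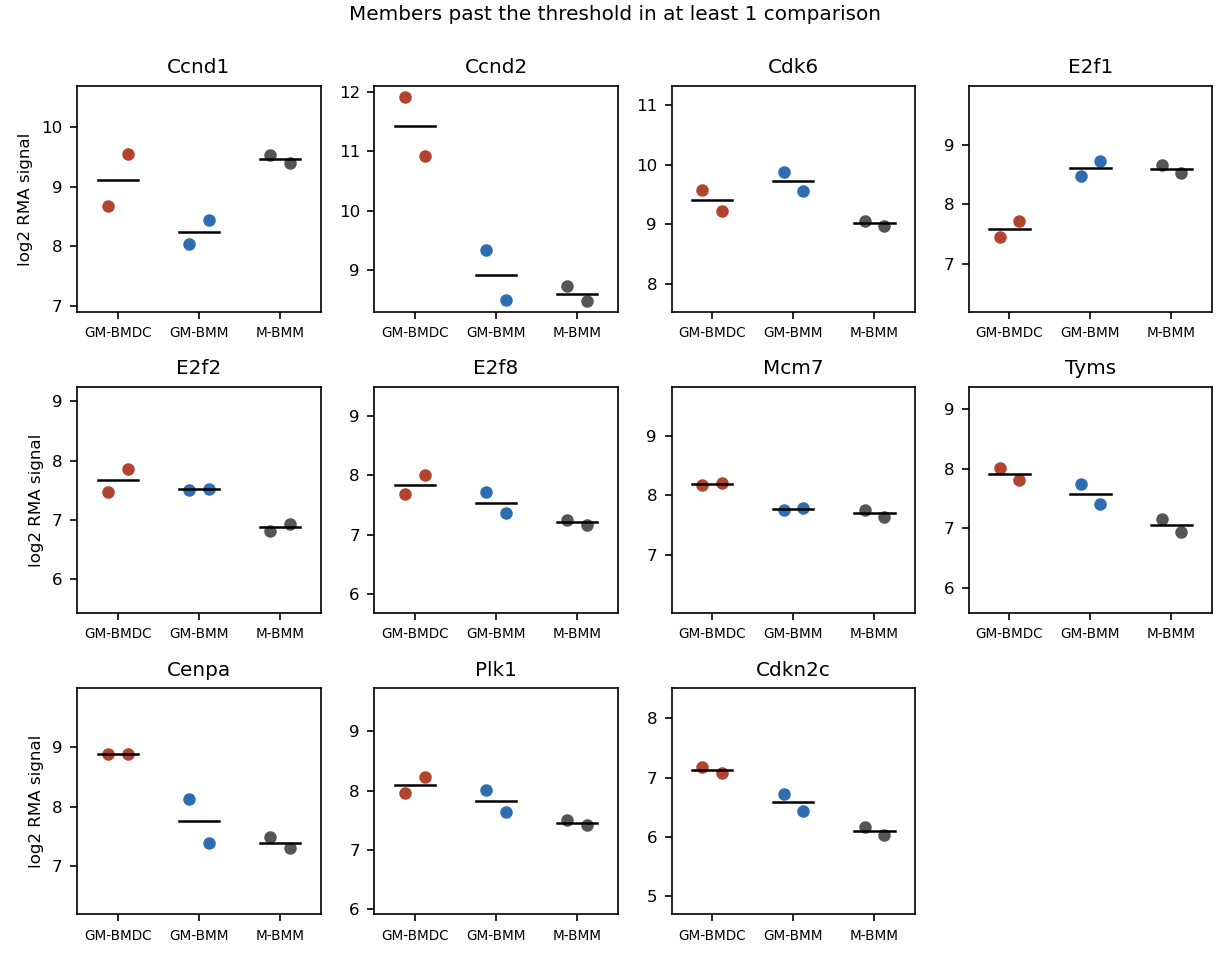
Log2 RMA signal (vertical axis) of the 11 genes called in at least 1 comparison, with a point per array, a line at the mean of each group of 2 and an axis of the same length in each panel. Ccnd2 and E2f1 set GM-BMDC apart from both macrophage groups in opposite directions, and Cdkn2c and Tyms step down through GM-BMDC, GM-BMM and M-BMM.

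S phase and mitotic genes were set side by side by their deviations, each gene's signal minus its own mean over the 6 arrays. The median deviation of the 12 replication genes was -0.04 and 0.12 in GM-BMDC, 0.01 and -0.06 in GM-BMM, and -0.01 and -0.15 in M-BMM. The median deviation of the 18 G2/M and mitotic genes was 0.00 and 0.16 in GM-BMDC, 0.16 and -0.25 in GM-BMM, and -0.02 and -0.18 in M-BMM. By their medians, replication genes were thus level in the GM-BMM arrays, while mitotic genes were high in one and low in the other. Single replication genes differed in both directions, with replicate 1 minus replicate 2 at 0.37 for Rrm1 and -0.31 for Mcm3. The SD of the array medians within groups, pooled, was 0.09 for replication and 0.19 for mitotic genes.

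The direction of the gap between the GM-BMM replicates was the same in all 18 mitotic members, and its size was not. Signals were higher in GM-BMM replicate 1 than in replicate 2 in 18 of 18 G2/M and mitotic genes, by a median of 0.40, against 7 of 12 replication genes, by a median of 0.02, and 44.2% of all genes. The gaps reached 0.83 for Mki67, 0.75 for Cenpa, 0.72 for Ccna2 and 0.69 for Bub1, and exceeded 0.5 in 7 of the 18, against 6.35% of all genes. They were small for Bub1b (0.0075), Birc5 (0.04), Aurkb (0.04) and Cdc20 (0.05). Other spindle, kinetochore and cytokinesis genes shared the direction in 52 of 58. Of the other lists described below, recombination and checkpoint genes shared it in 14 of 17 and condensation and cohesion genes in 11 of 14. Fork genes shared it in 20 of 33, E2F, RB and MuvB regulators in 15 of 24, origin genes in 12 of 20 and growth arrest genes in 10 of 24. In M-BMM, replicate 1 was above replicate 2 in 12 of 12 replication and 16 of 18 mitotic genes, by medians of 0.13 and 0.20, against 50.9% of all genes. In GM-BMDC replicate 1 was above replicate 2 in 1 of 12 replication and 3 of 18 mitotic genes, against 10569 of all 19938 genes. Members of a group share an array, so these counts describe arrays and are not independent observations.

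The 2 GM-BMM arrays also differed in other genes, and the parts of these in the gap cannot be told apart. Xist had signals of 11.58 in replicate 1 and 4.93 in replicate 2, and Uty 3.58 and 8.68. The MHC class II genes of the gate were lower in replicate 1. H2-Ab1 had 10.08 and 11.27, H2-Aa 10.25 and 11.45, and H2-Eb1 9.78 and 11.04. Markers of other cell types differed as well. Of 6 neutrophil markers, 5 were higher in GM-BMM replicate 1 than in replicate 2, and their summed linear signals were 575 and 567 in GM-BMDC, 1253 and 496 in GM-BMM, and 694 and 575 in M-BMM. S100a8 had signals of 8.54 and 7.04 in GM-BMM, while Camp had 5.86 and 6.03. In GM-BMM replicate 1 the mast cell gene Cpa3 (5.91, against 4.46 in replicate 2) and the fibroblast gene Dcn (7.63, against 6.94) were also high. Replicate 1 was above replicate 2 in 3 of 4 mast cell and 2 of 4 fibroblast markers. Fcer1a (4.42, against 4.56), Col1a2 (6.67, against 6.82) and Pdgfra (5.17, against 5.28) went the other way. The summed signals of the 4 markers of each type in GM-BMM were 184 and 133 for mast cells and 462 and 399 for fibroblasts. Cpa3 and Dcn made most of these gaps.

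Markers of other cell types also differed between GM-BMDC and GM-BMM. Of 2 measured monocyte markers, Plac8 was called lower in GM-BMDC (a log2 difference of -2.70, limma adjusted p = 0.00029). Ccr2 went the other way (0.74) and was not called. Of 4 fibroblast markers only Dcn was called, lower in GM-BMDC (-1.67, limma adjusted p = 0.0050). Of 7 markers of myeloid precursors, Kit and Cd34 were called higher in GM-BMDC, and the other 5 were not called. Kit had signals of 8.02 and 7.57 in GM-BMDC, 6.30 and 5.75 in GM-BMM, and 5.85 and 5.94 in M-BMM. The other 5 did not share a direction, with log2 differences between GM-BMDC and GM-BMM of 0.35 for Mpo and 0.14 for Elane, and of -0.44 for Ctsg, -0.31 for Prtn3 and -0.11 for Ms4a3. The summed linear signals of the 7, to which Kit and Cd34 add most in GM-BMDC, were 594 and 572 in GM-BMDC, 361 and 331 in GM-BMM, and 361 and 378 in M-BMM. Of 3 B lymphocyte markers, Cd79a was called higher in GM-BMDC than in GM-BMM (a log2 difference of 2.45), with signals of 7.15 and 6.23 in GM-BMDC, 3.99 and 4.49 in GM-BMM, and 4.73 and 4.49 in M-BMM, while Cd79b and Pax5 were not called there. Cd79b was lower in both GM-CSF groups than in M-BMM, and the summed signals of the 3 were 617 and 313 in GM-BMDC, 280 and 335 in GM-BMM, and 1234 and 1269 in M-BMM. In GM-BMDC the measured macrophage markers were higher in replicate 2, as most replication and mitotic members were. Adgre1 had signals of 9.39 and 10.91 there, Csf1r 10.53 and 11.51, and Mertk 9.41 and 9.95. Fcgr1 had 9.24 and 9.83, Cd68 11.08 and 11.71, and Cd14 9.35 and 9.95. The part of these cells in the results above was not tested.

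**Figure D4:**
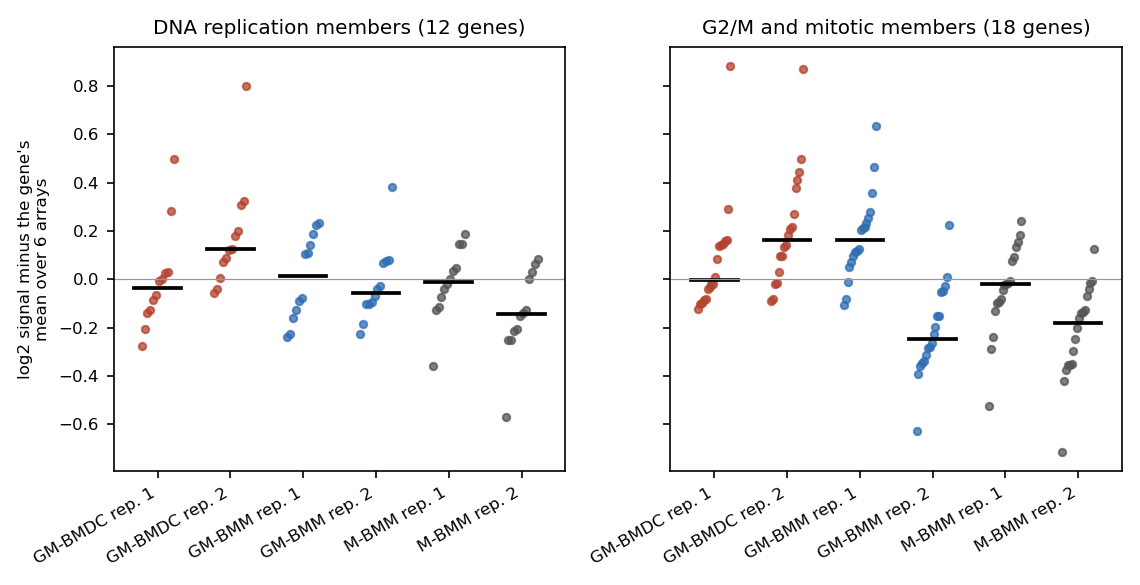
Deviation of each gene's log2 signal from its own mean over the 6 arrays (vertical axis) for the 12 replication genes (left) and the 18 G2/M and mitotic genes (right), with a point per gene in each array and a bar at the median. The mitotic medians of the GM-BMM arrays lie at 0.16 and -0.25, those of the replication genes at 0.01 and -0.06.

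The promoters of the replication and mitotic members are shown because E2F sites are known for genes of S phase and CHR elements, with CCAAT boxes, for genes of G2 and mitosis. Windows came from RefSeq (build GRCm38.p6), with 250 bases before the start of transcription and 50 after it, the first window of each gene, and 37 of the 45 genes had one. The E2F motif was searched on both strands as TTTCCCGC, TTTGGCGC, TTTCGCGC or TTTGCCGC, the CHR as TTTGAA and the CCAAT box as CCAAT. Matches of different motifs may share bases, as in Mcm7, where the last base of the E2F match is the first of a CCAAT box. The E2F motif was found in 6 of 11 replication promoters (54.5%) and 1 of 15 G2/M and mitotic promoters (6.67%), that of Cdk1, against 2.32% of 27025 windows of all genes. The CHR was found in 1 of 11 replication promoters (9.09%), that of Mcm2, and 11 of 15 G2/M and mitotic promoters (73.3%), against 18.1% of all windows. CCAAT was found in 8 of 11 (72.7%) and 14 of 15 (93.3%), against 37.9%. Among the 15563 windows of genes measured on the array, 3.08% held the E2F motif, 15.2% the CHR and 38.3% CCAAT. A match is a description of letters, not a shown binding site.

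The E2F matches of the 6 replication promoters, each the one nearest the start, are printed 5′ to 3′ on the strand where the motif reads, with the motif in capitals.
Mcm3 (chr1:20820276-20820303, + strand): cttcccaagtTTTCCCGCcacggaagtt
Mcm5 (chr8:75109350-75109377, - strand): ggctggacgtTTTGGCGCgaaagttctt
Mcm6 (chr1:128359735-128359762, - strand): attggacgggTTTGGCGCgaagtagctc
Mcm7 (chr5:138171850-138171877, - strand): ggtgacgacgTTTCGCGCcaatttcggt
Cdc6 (chr11:98908003-98908030, - strand): ccccaggcgaTTTCCCGCtctccaccgg
Cdt1 (chr8:122568037-122568064, + strand): gaactaccttTTTGGCGCcatggcgcaa
Of these genes Mcm7 was called in GM-BMDC against M-BMM, and Mcm3, Mcm5, Mcm6, Cdc6 and Cdt1 were not called in any comparison.

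The CHR matches of the 11 G2/M and mitotic promoters are printed in the same way. The matches of 10 of the 11 genes began within 50 bases of the start of transcription.
Ccnb2 (chr9:70421535-70421560, - strand): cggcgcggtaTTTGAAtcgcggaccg
Cdk1 (chr10:69352912-69352937, - strand): ccgcggcgagTTTGAAactgctggca
Mki67 (chr7:135716462-135716487, - strand): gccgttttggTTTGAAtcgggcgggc
Top2a (chr11:99024197-99024222, + strand): cctagtttcaTTTGAAcctttatcta
Cenpa (chr5:30666892-30666917, + strand): cgggtgatttTTTGAActgctggcga
Cenpf (chr1:189688069-189688094, - strand): cggcgggcagTTTGAAtcgctcgtgc
Aurka (chr2:172370523-172370548, - strand): aaggagaaccTTTGAAttgtaacggc
Bub1b (chr2:118598241-118598260, + strand): agacgttaaaTTTGAAactt
Plk1 (chr7:122159455-122159480, + strand): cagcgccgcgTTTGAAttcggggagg
Kif11 (chr19:37376353-37376378, - strand): gcgcctcaatTTTGAAaaatggagac
Cdc20 (chr4:118437346-118437371, - strand): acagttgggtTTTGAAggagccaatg
Of these genes Cenpa and Plk1 were called in GM-BMDC against M-BMM. All 11 had a higher signal in GM-BMM replicate 1 than in replicate 2. So had all 18 measured G2/M and mitotic genes, so this does not set genes with a CHR apart.

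The bases before the start are given for the member of each role with the largest mean absolute difference over the 3 comparisons, among those with enough bases before their outermost annotated start. Cenpa shows a pair of CCAAT boxes in capitals, which read ATTGG on the printed strand, and its CHR stands in the list above because it lies 17 to 22 bases after the start. Tyms holds none of the 3 motifs in its window.
Cenpa (chr5:30666636-30666876, + strand): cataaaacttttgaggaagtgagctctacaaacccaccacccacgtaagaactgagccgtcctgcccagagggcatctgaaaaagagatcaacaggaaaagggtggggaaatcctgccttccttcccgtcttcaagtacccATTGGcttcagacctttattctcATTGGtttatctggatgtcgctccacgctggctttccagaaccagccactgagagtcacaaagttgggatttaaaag
Tyms (chr5:30073646-30073875, - strand): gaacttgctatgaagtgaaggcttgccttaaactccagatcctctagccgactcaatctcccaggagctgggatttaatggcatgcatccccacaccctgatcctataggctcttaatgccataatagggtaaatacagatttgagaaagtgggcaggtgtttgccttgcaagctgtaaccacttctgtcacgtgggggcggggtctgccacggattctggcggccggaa

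Another 199 genes of the pathway were listed, and 190 were measured. Of these, 10 were higher and 6 lower in GM-BMDC than in GM-BMM, 6 were higher and 3 lower in GM-BMM than in M-BMM, and 15 were higher and 10 lower in GM-BMDC than in M-BMM, which makes 8.42%, 4.74% and 13.2% called, each below the 10.4%, 6.19% and 16.7% of all genes. Of these 50 calls 8 held in all 15 alternatives, and 37 were lost without an M-BMM array, 27 without a GM-BMDC array and 19 without a GM-BMM array. The 8 concern Chaf1b, H2az1, Btg1, Plk3 and Sesn1.

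Growth arrest and p53 response genes gave the most calls of these lists. Of the 24 genes 25.0%, 20.8% and 33.3% were called, against 10.4%, 6.19% and 16.7% of all genes. All genes include 3300 that were low in every array, and these 24 include none. Of the 9969 genes above the median signal, 2086, 1292 and 3176 were called, a larger share than of all genes each time. An excess of the 24 over those brighter genes was not tested. Here 4 of 24 were higher and 2 lower in GM-BMDC than in GM-BMM. Against M-BMM, 2 were higher and 3 lower in GM-BMM, and 5 were higher and 3 lower in GM-BMDC. Every gene called between the GM-CSF groups (Cdkn2b, Gadd45a, Gadd45b, Sesn2, Plk3 and Foxo1) lost that call in at least 1 alternative. Calls that held in every alternative were those of Btg1 and Plk3 in both GM-CSF groups against M-BMM, and of Sesn1 in GM-BMDC against M-BMM. Btg1, an inhibitor of proliferation, had signals of 12.19 and 11.81 in GM-BMDC, 11.41 and 11.47 in GM-BMM, and 9.48 and 9.41 in M-BMM. Both GM-CSF groups were far above M-BMM. The log2 difference of Btg1 between GM-BMDC and M-BMM was 2.56 ± 0.15, or 5.89-fold (limma adjusted p = 7.2e-05), and it was 3.99-fold higher in GM-BMM than in M-BMM (1.99 ± 0.15, limma adjusted p = 0.00036).

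Plk3, a stress-responsive kinase of the Polo family, had signals of 7.68 and 7.97 in GM-BMDC, 8.55 and 8.71 in GM-BMM, and 6.94 and 6.72 in M-BMM. GM-BMM was highest and M-BMM lowest. Plk3 was 3.48-fold higher in GM-BMM than in M-BMM (a log2 difference of 1.7995 ± 0.14, limma adjusted p = 0.00058) and 1.99-fold higher in GM-BMDC than in M-BMM (0.99 ± 0.14, limma adjusted p = 0.0036). GM-BMDC minus GM-BMM was -0.81 ± 0.14 (limma adjusted p = 0.0135), a call lost without GM-BMDC replicate 1 (adjusted p = 0.0728) or GM-BMM replicate 2 (0.067). Sesn1, a target of p53 that restrains mTORC1, had signals of 7.74 and 8.32 in GM-BMDC, 8.55 and 8.52 in GM-BMM, and 10.08 and 9.96 in M-BMM. M-BMM was high. Sesn1 was 3.96-fold lower in GM-BMDC than in M-BMM (a log2 difference of -1.99 ± 0.19, limma adjusted p = 0.00056) and 2.79-fold lower in GM-BMM than in M-BMM (-1.48 ± 0.19, limma adjusted p = 0.0045), the second call lost without M-BMM replicate 1 (adjusted p = 0.0705) or 2 (0.0593).

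Among the 33 measured genes of the replication fork, polymerases and nucleotides, 0 were higher and 3 lower in GM-BMDC than in GM-BMM, 1 were higher and 0 lower in GM-BMM than in M-BMM, and 1 were higher and 2 lower in GM-BMDC than in M-BMM. This makes 9.09%, 3.03% and 9.09% called, against 10.4%, 6.19% and 16.7% of all genes. Chaf1b, a subunit of the factor that assembles chromatin behind the fork, had signals of 7.37 and 7.58 in GM-BMDC, 8.42 and 8.29 in GM-BMM, and 8.12 and 7.997 in M-BMM. GM-BMDC was below the other 4 arrays. Chaf1b was 1.84-fold lower in GM-BMDC than in GM-BMM (a log2 difference of -0.88 ± 0.13, limma adjusted p = 0.0055). Against M-BMM it was 1.495-fold lower (-0.58 ± 0.13, limma adjusted p = 0.0198), a call lost without GM-BMDC replicate 1 (adjusted p = 0.103), M-BMM replicate 1 (0.145) or 2 (0.0801), and without both GM-CSF arrays numbered 1 (0.0666).

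Of 14 genes of chromosome condensation and cohesion, 1 was higher in GM-BMDC against GM-BMM, 1 in GM-BMM against M-BMM and 2 in GM-BMDC against M-BMM, with none lower. This makes 7.14%, 7.14% and 14.3% called, against 10.4%, 6.19% and 16.7% of all genes. H2az1, which encodes the histone variant H2A.Z, had signals of 10.98 and 11.05 in GM-BMDC, 10.23 and 9.94 in GM-BMM, and 10.02 and 9.95 in M-BMM. Both GM-BMDC arrays were above the other 4. H2az1 was 1.91-fold higher in GM-BMDC than in GM-BMM (a log2 difference of 0.93 ± 0.13, limma adjusted p = 0.0051) and 2.05-fold higher than in M-BMM (1.04 ± 0.13, limma adjusted p = 0.002).

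Spindle, kinetochore and cytokinesis genes had 2 of 58 higher and 1 lower in GM-BMDC than in GM-BMM, 1 and 0 in GM-BMM than in M-BMM, and 3 and 2 in GM-BMDC than in M-BMM. This makes 5.17%, 1.72% and 8.62% called, against 10.4%, 6.19% and 16.7% of all genes. E2F, RB and MuvB regulators had 1 of 24 higher and 0 lower, 1 and 0, and 3 and 1 in the same comparisons, including Tfdp2, a partner of E2F factors, which was 2.16-fold higher in GM-BMDC than in M-BMM (a log2 difference of 1.11 ± 0.19, limma adjusted p = 0.0067), a call lost without M-BMM replicate 2 (adjusted p = 0.0677). Origin licensing and firing genes had 1 of 20 higher, 0 and 1, with 0 lower in each. The gene called was Gins3, a subunit of the GINS complex of the helicase, with signals of 7.57 and 7.22 in GM-BMDC, 6.55 and 6.57 in GM-BMM, and 6.53 and 6.24 in M-BMM. Gins3 was 2.01-fold higher in GM-BMDC than in M-BMM (a log2 difference of 1.01 ± 0.16, limma adjusted p = 0.0048), a call lost without M-BMM replicate 2 (adjusted p = 0.0515). Genes of homologous recombination and the replication checkpoint had 1 of 17 higher and 0 lower, 0 and 0, and 0 and 2. The shares called were 4.17%, 4.17% and 16.7% of the E2F, RB and MuvB regulators and 5.0%, 0% and 5.0% of the origin genes. Of the recombination genes 5.88%, 0% and 11.8% were called. At an unadjusted p under 0.05 in limma, 4, 2 and 6 of the origin genes and 3, 3 and 3 of the recombination genes differed in these comparisons. Of all 19938 genes 4632, 3834 and 5621 did.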

How the data were processed

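RNA of 6 samples was measured on 1 Affymetrix array each. Per the submitters' processing notes, the authors used Affymetrix Expression Console 1.1 and RMA, and the deposited values are log2 signals, background-corrected and made comparable between arrays by RMA. The genome build behind the array annotation is not given in the sources used here. Of 35556 probe sets, 21789 named 1 gene, 1621 several and 12146 none, and 999 genes had more than 1 probe set.

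All 6 arrays were fitted together with limma 3.58.1 in R 4.3.3, with 3 residual and 4.34 prior degrees of freedom, two-sided tests and Benjamini-Hochberg adjustment at 0.05 over 19938 genes within a comparison. No filter on low values was used, and simulated data were used to test the fit. With 2 arrays per group the standard error of a difference had a median of 0.132 over all genes, which limits the precision. Python 3.11.15 with matplotlib 3.10.9, NumPy 2.4.6 and pandas 2.3.3 was used for tables and plots.

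The members and lists were chosen with earlier results of these data known, so lists are described and not tested. Full values are given for up to 6 called members per direction and comparison, and for the D-type cyclins, Cdk4, Cdk6 and the CDK inhibitors whether called or not. From the other lists up to 3 called genes per direction and comparison could be named. The values of E2f8, Mcm7, Pcna, Cdt1 and Mki67 fall outside that rule, and they and the other genes described were picked with their values in view. The alternatives left out each array in turn or both GM-CSF arrays numbered 1, added the replicate number as a block or Y-linked signal as a covariate, fitted only the groups compared, and changed the variance model, the genes or probe sets tested, the centring of arrays and the probe set per gene.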

Additional observations from a re-analysis of the deposited data

How the results depend on the processing

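With 2 arrays per group, a group that loses 1 is taken to vary as the others do. No called difference of a named gene changed sign in any of the 15 alternatives. Of 16 calls of cell cycle members 5 held in all of them, 11 were lost without an M-BMM array, 6 without a GM-BMDC array and 4 without a GM-BMM array. With each array left out in turn, calls over all genes in GM-BMDC against GM-BMM ran between 549 and 880 higher and 550 and 1175 lower, and ran between 217 and 804 higher and 92 and 543 lower in GM-BMM against M-BMM, and 731 and 1602 higher and 557 and 1810 lower in GM-BMDC against M-BMM, where the full fit gave 935 and 1144, 722 and 513, and 1548 and 1775. Members ran between 1 and 3 higher, 0 and 3 higher with 0 and 1 lower, and 2 and 9 higher with 1 and 2 lower in the same comparisons. Other pathway genes ran between 2 and 10 higher and 1 and 8 lower, 2 and 5 higher and 0 and 4 lower, and 4 and 20 higher and 1 and 11 lower. The median of the replication members ran between -0.0124 and 0.124, -0.0169 and 0.133, and -0.0488 and 0.236. The median of the mitotic members ran between -0.0384 and 0.333 in GM-BMDC against GM-BMM.

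Fitting only the groups compared gave, for GM-BMDC against GM-BMM, 549 genes higher and 658 lower, with 1 member higher and 4 other pathway genes higher and 3 lower. Testing all probe sets gave 460 and 559 there, with 1 member higher and 2 and 2 other genes, 407 and 208 in GM-BMM against M-BMM, with 0 and 0 members and 3 and 1 other genes, and 1009 and 1021 in GM-BMDC against M-BMM, with 5 members higher and 3 other genes lower. Without both GM-CSF arrays numbered 1, members higher were 7 in GM-BMDC against GM-BMM and 1 in GM-BMM against M-BMM, other genes were 8 lower in GM-BMM against M-BMM and 24 higher in GM-BMDC against M-BMM, and medians were 0.13 for replication and 0.41 for mitotic members in GM-BMDC against GM-BMM and 0.24 for replication members in GM-BMDC against M-BMM. Y-linked signal as a covariate gave 302 genes lower, 0 and 0 members, 3 other genes higher and a replication median of 0.13 in GM-BMM against M-BMM, and 1029 genes lower, 5 members higher and 6 other genes lower in GM-BMDC against M-BMM. The member calls lost with it were Ccnd1, Cdk6 and E2f2 in GM-BMM against M-BMM (limma adjusted p = 0.0636, 0.105 and 0.0608). In GM-BMDC against M-BMM they were E2f8, Mcm7 and Plk1 (limma adjusted p = 0.128, 0.066 and 0.128). Centring the arrays gave replication medians of 0.0078 in GM-BMDC against GM-BMM and 0.0602 in GM-BMDC against M-BMM, and 1 member higher in GM-BMM against M-BMM. A trended and robust variance gave 0 members lower in GM-BMM against M-BMM, and genes above the median signal 10 other genes lower in GM-BMDC against GM-BMM. The cause of these changes was not tested.

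The labels do not say that replicate numbers pair samples, and deviations of same-numbered arrays correlated over genes at 0.02 between GM-BMDC and GM-BMM, 0.03 between GM-BMM and M-BMM and -0.13 between GM-BMDC and M-BMM. With the replicate block, members were 3 higher and 1 lower, 2 and 1, and 6 and 1 in the 3 comparisons, without the calls of E2f8 and Plk1 in GM-BMDC against M-BMM.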
